A study of Mus musculus with 6 samples.

Results

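The genes described here are 42 genes of mitosis and the spindle: the late cyclins and their kinase, the mitotic kinases, the spindle checkpoint, kinetochore and centromere proteins, spindle motors and the proteins that pinch the daughter cells apart. They were chosen by name, with earlier results of these data known, and each was read at its brightest probe set over all 6 arrays. Of the 42, 41 had a probe set that carries their symbol alone, out of 18193 genes measured in all. The exception was Ccnb1, the cyclin B1 gene, whose expression is not analysed here, although its promoter window is. Expression was measured on Affymetrix arrays in mouse pro-B cells of the genotype Pax5-/-, in which the transcription factor that commits cells to the B lineage is missing. All groups shared this deletion, culture on the stromal line ST2 and 5 ng/ml IL-7. In the EBF group (3 arrays, EBF 1 to 3) the cells had been infected with the Mig-EBF retrovirus, which carries the early B cell factor EBF, and in the control group (3 arrays, control 1 to 3) with the MigR1 retrovirus. GFP-positive cells were sorted after 2 days, and 6 microg of total RNA was labelled. The labels number the arrays without saying whether each came from a culture or animal of its own, so the p-values below cover array-to-array spread that may be wholly technical.

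Cells make the messages for mitosis in a wave late in the cell cycle and shut them off again in the daughter cells or on leaving the cycle. In a bulk culture the level of these messages therefore follows the share of cells that are cycling as well as the amount per cell. Many of the genes share a promoter layout: an element called the CHR (cell cycle genes homology region), at which the DREAM complex represses them in resting cells and B-Myb and FoxM1 complexes activate them, with CCAAT boxes, bound by NF-Y, a short way upstream. Pro-B cells are known to divide rapidly when cultured with IL-7.

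The promoter layout is printed for 6 members, because it is a feature that the genes share and that the choice by name did not use. RefSeq promoter windows (build GRCm38.p6, 250 bases before to 50 after the annotated start) were found for 34 of the 42 members. Each stretch below is the 150 bases just before the start, read 5′ to 3′ on the gene's own strand. Capitals mark matches to the CHR letters (TTTGAA or TTCGAA) and to CCAAT, on either strand. Mki67 lies at chr7:135716380-135716529 on the minus strand, Kif22 at chr7:127042421-127042570 (minus), Top2a at chr11:99024190-99024339 (minus), Cdk1 at chr10:69352913-69353062 (minus), Cdc20 at chr4:118437344-118437493 (minus) and Kif11 at chr19:37376232-37376381 (plus).
Mki67: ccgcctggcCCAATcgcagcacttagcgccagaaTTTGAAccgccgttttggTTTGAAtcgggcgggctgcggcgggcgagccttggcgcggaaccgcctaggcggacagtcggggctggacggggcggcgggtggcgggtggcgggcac
Kif22: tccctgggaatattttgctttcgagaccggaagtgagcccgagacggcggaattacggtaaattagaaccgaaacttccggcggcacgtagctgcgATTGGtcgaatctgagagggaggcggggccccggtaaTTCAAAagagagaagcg
Top2a: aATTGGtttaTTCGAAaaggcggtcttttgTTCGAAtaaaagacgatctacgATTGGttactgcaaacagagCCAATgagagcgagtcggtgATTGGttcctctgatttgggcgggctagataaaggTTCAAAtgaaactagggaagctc
Cdk1: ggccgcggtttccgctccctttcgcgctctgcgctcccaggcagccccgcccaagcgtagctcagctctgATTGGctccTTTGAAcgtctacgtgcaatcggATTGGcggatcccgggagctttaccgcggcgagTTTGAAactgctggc
Cdc20: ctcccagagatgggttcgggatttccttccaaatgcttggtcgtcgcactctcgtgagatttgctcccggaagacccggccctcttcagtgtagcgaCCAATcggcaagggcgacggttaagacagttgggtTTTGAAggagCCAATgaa
Kif11: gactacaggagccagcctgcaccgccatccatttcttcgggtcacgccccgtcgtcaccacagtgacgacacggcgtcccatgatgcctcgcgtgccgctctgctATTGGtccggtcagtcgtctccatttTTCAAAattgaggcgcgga
All 6 are among the 12 of 34 members in which a CHR match and a CCAAT match both lie whole within the 150 bases. That both matches stand in every printed stretch therefore reflects which members are printed. In Kif22, Cdk1, Cdc20, Kif11 and Top2a a CHR match lies within 50 bases of the start.

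Over the whole windows, a CHR match was found in 27 of 34 members (79.4%), against 21.7% of the 27025 genes in the promoter table. Within 50 bases of the start it was found in 25 of 34 (73.5%), against 6.12% of all genes. CCAAT was present in 27 of 34 members (79.4%) and in 41.1% of all genes, and both together in 24 of 34 (70.6%) and in 8.61%. Related genes outside the member list shared part of this. Of 85 other mitosis genes, 50.6% had a CHR match, 57.6% a CCAAT match and 34.1% both. Of 47 DNA replication and S phase genes the shares were 21.3%, 57.4% and 12.8%. Birc5, Ccnb1, Cenpe, Mad2l1, Nek2, Nuf2 and Pttg1 had no CHR match in the window. In Plk1 the CHR match lay 31 bases after the start and a CCAAT match stood just before it. The E2F letters TTTGGCGC or TTTCGCGC, searched on both strands, were in 1 of 34 members (2.94%), Cdk1, in 12 of 47 DNA replication and S phase genes (25.5%) and in 0.929% of all genes. The letters of an EBF site (TCCC, any pair of bases, then GGGA, on both strands) were in 0 of 34 members and in 1.06% of all genes. CHR, CCAAT and E2F matches overlapped each other in 0 of the members' windows. A match describes letters in the window, not a bound site.

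The cells were checked before the results. At the brightest Ebf1 probe set the arrays read 4772, 4756 and 4082 in EBF 1 to 3 and 4204, 4276 and 4029 in control 1 to 3, and at that of Pax5 959, 917 and 922 against 946, 970 and 1025. Neither probe set can test the labels, since its place relative to the viral insert or to the deletion is unknown. Of 12 pro-B cell markers 11 exceeded 410, the highest reading of any Bacillus control probe set, in both groups. Of these, Kit fell from a mean of 2050 to 1167 and Dntt from 2549 to 1547 (adjusted p = 0.0187 and 0.0226). Over the whole pro-B list, 8 of 12 had a log2 difference above 0, with a median of 0.09. The list's sums were 70636 to 72046 in the EBF arrays and 62740 to 66243 in the controls. Of 14 stromal markers 12 exceeded the Bacillus reading of 410 in both groups, although GFP-positive cells had been sorted. Their summed intensity was 21387 to 26612 in the EBF arrays and 21743 to 32684 in the controls. Of 12 T and NK cell markers 6 did so in both groups, with sums of 5892 to 6560 in the EBF arrays and 7785 to 9088 in the controls. Of these 12, Klrd1 fell from a mean of 2646 to 607 (log2 -2.06 ± 0.15, adjusted p = 0.00118) and Cd5 from 481 to 290 (log2 -0.67 ± 0.08, adjusted p = 0.0121), while the median over the list was -0.05. Of 11 myeloid markers 6 exceeded that reading in both groups, with sums of 6235 to 6571 and 6324 to 6958, and Lyz2 fell from 808 to 569 (log2 -0.48 ± 0.07, adjusted p = 0.0169). Among markers below that reading were S100a8, Mpo, Gzmb and Ncr1, and no marker was listed at 0. All 41 members exceeded it in both groups. Array medians ran from 424 to 451.

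No member passed the threshold for a change at its brightest probe set when replicate number was left out of the model. The fit was limma on log2(intensity + 32), EBF minus control, with Benjamini-Hochberg adjustment across 45037 probe sets and a threshold of 0.05. It called 0 of 41 members, against 0.418% of all genes called higher and 0.671% called lower. Differences leaned to one side: 39 of 41 members were above 0, as were 58.0% of all genes, and the median log2 difference was 0.18, against 0.03 over all genes. The differences ran from -0.03 to 0.34, with limma standard errors of 0.07 to 0.14. At an unadjusted p below 0.05, 17 members were higher and 0 lower, where 13.5% of all genes were higher and 6.23% lower. In 21 of 41 all EBF arrays lay above all control arrays, against 17.2% of all genes, and in 0 of 41 they lay below, against 8.06%. A larger share of dividing cells and more message per cell cannot be told apart in such samples.

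When replicate number entered the model as a block, Mki67 and Plk1 passed as higher and 0 members as lower, where 4.8% of all genes were called higher and 2.51% lower. The share of members called, 2 of 41, is near that background.

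**Figure D1:**
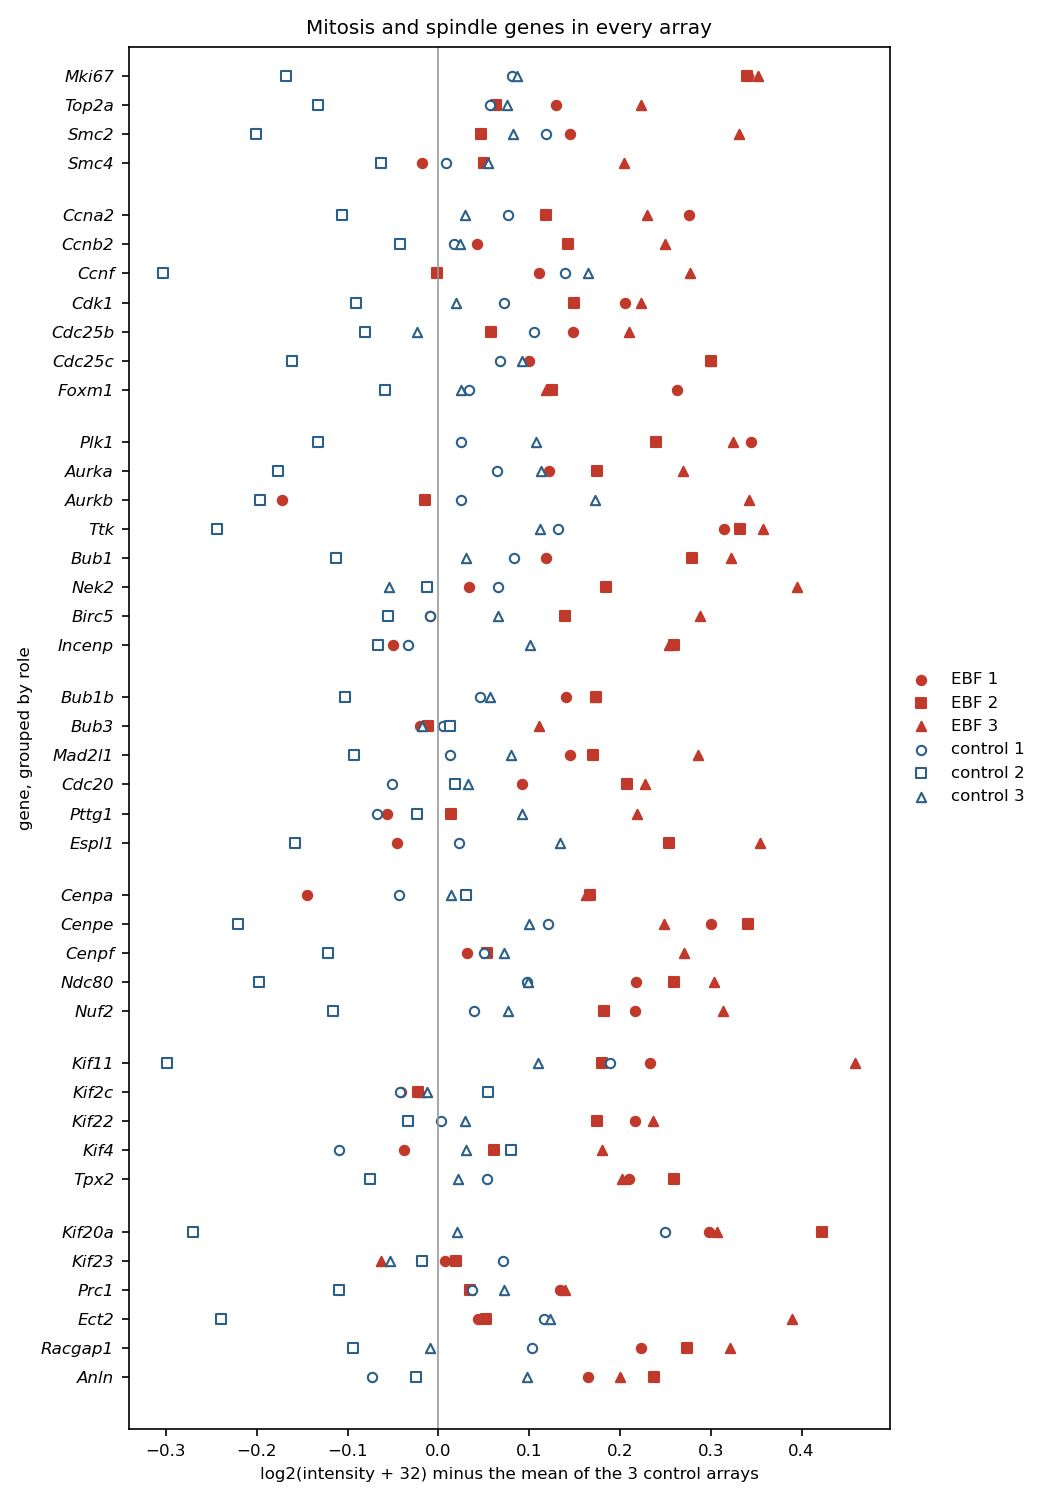
Each row is a gene and each point an array; the horizontal axis gives log2(intensity + 32) minus the mean of the 3 control arrays, with EBF arrays filled red and control arrays open blue. Control 2 is the lowest array for 32 of the 41 genes and EBF 3 the highest for 28.

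The arrays within a group were not alike, and 2 of them stood apart. Control 2 was the lowest of the 6 arrays for 32 of 41 members (78.0%), against 14.8% of all genes, and EBF 3 was the highest for 28 (68.3%), against 17.9%. The median member stood 0.13, 0.17 and 0.25 above the control mean of its gene in EBF 1 to 3, and 0.05, -0.10 and 0.07 from it in control 1 to 3. Between arrays of the same number, the median difference was 0.05 for number 1, 0.25 for number 2 and 0.20 for number 3. Hence arrays EBF 1 and control 1 were close together, and 28 of 41 members (68.3%) were higher in the EBF array of every number, against 31.2% of all genes. Without control 2 the median was 0.12 with 37 members above 0 and 0 called (smallest adjusted p 0.28), where 0.121% of all genes were called higher and 0.148% lower. Without control 2 and EBF 3 it was 0.07 with 32 above 0, against 0.04 over all genes, and 0 members were called, against 3.17% of all genes called higher and 1.31% lower. Most members were lowest in control 2 and highest in EBF 3, so leaving these arrays out lowers their median by construction. The lower medians therefore cannot test whether the lean is robust. The summed stromal marker intensity was 28900 in control 2, between 21743 in control 1 and 32684 in control 3, and the part of other cells in the pattern was not tested.

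Among the genes of chromosome structure and proliferation, Mki67 had the largest difference. Mki67 encodes Ki-67, the coat protein of mitotic chromosomes that is used as a marker of cycling cells. It read 8065, 8058 and 8126 in EBF 1 to 3 and 6729, 5659 and 6758 in control 1 to 3. All EBF arrays lay above all controls, and control 2 was the low one. The means were 8083 ± 37.4 and 6382 ± 627 (SD, n = 3 each), a 1.27-fold difference (log2 0.34 ± 0.09, SE; limma adjusted p = 0.119, and 0.0386 with the replicate block). The blocked call was lost without the arrays of number 1 or of number 2 (adjusted p up to 0.179) and kept without those of number 3. Top2a, the topoisomerase that untangles sister chromatids, read 9789, 9353 and 10455 in the EBF arrays and 9316, 8163 and 9434 in the controls at its brightest probe set, where the groups overlapped (log2 0.14 ± 0.08, adjusted p = 0.407). At another Top2a probe set the values were 2122, 1971 and 1536 against 1171, 1091 and 1258, with no overlap. That difference, log2 0.65 ± 0.12, was the largest at any probe set of a member (adjusted p = 0.0555, and 0.0119 with the block, with adjusted p up to 0.141 when a number was left out). The third Top2a probe set gave 0.15, so the probe sets differed in size. Smc2, an ATPase subunit of the condensin complexes that compact chromosomes, read 4956, 4627 and 5643 against 4865, 3893 and 4742 (log2 0.17 ± 0.11). Its partner Smc4 had a log2 difference of 0.08, and both overlapped between groups at their brightest probe sets. The other Smc2 probe sets gave 0.28 without overlap, and 0.09, -0.01 and -0.03 with overlap. Those of Smc4 gave 0.15 and -0.02, both with overlap.

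The cyclins and regulators of the mitotic kinase lay close together, with a median log2 difference of 0.17 over 7 measured genes, all above 0, and control 2 was the lowest array for all 7. Cdk1, the kinase that drives entry into mitosis, read 7997, 7687 and 8092 in the EBF arrays and 7286, 6503 and 7023 in the controls (log2 0.19 ± 0.07, adjusted p = 0.218). Its S phase and early mitotic partner Ccna2, cyclin A2, read 7301, 6545 and 7069 against 6356, 5594 and 6144 (log2 0.21 ± 0.08, adjusted p = 0.223). In neither gene did the groups overlap. Cdc25c, a phosphatase that switches on Cdk1, read 608, 703 and 703 against 594, 502 and 604 (log2 0.23 ± 0.10, adjusted p = 0.244); its lowest EBF array was hardly above the highest control. Cdc25b, the related phosphatase, read 596, 558 and 623 against 577, 504 and 525 (log2 0.14 ± 0.08) and overlapped. Ccnb2, a mitotic cyclin, had 0.15 without overlap, and Ccnf, a cyclin-like F-box protein that marks targets for destruction, 0.13. Foxm1, the transcription factor that activates late cell cycle genes, had 0.17 ± 0.07 at its brightest probe set, also without overlap (adjusted p = 0.268). Another Foxm1 probe set read 1581, 1393 and 1209 against 1104, 995 and 1111 (log2 0.37 ± 0.10; adjusted p = 0.147, and 0.0456 with the block, with adjusted p up to 0.299 when a number was left out). The remaining Foxm1 probe sets gave 0.19 and, at a dim one, -0.05. At the probe set with 0.37, EBF 1 was the highest array.

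All 8 mitotic kinases and chromosomal passenger genes had differences above 0, with a median of 0.20. Plk1, the polo-like kinase that acts in centrosome maturation, spindle assembly and cytokinesis, read 4460, 4146 and 4395 in the EBF arrays and 3568, 3194 and 3781 in the controls. The groups were well apart, with means of 4334 ± 166 and 3514 ± 298 (SD, n = 3 each). The difference was 1.23-fold (log2 0.30 ± 0.08; adjusted p = 0.140, and 0.0450 with the block, a call lost without the arrays of number 1 or of number 2, with adjusted p up to 0.249). Ttk, the checkpoint kinase Mps1, read 1248, 1265 and 1288 against 1097, 837 and 1081, so that the EBF arrays were nearly level and control 2 was low (log2 0.33 ± 0.11, adjusted p = 0.169). Without control 2 its difference was 0.21. Bub1, a kinetochore kinase of the checkpoint, read 3190, 3568 and 3677 against 3111, 2712 and 2997 (log2 0.24 ± 0.09, adjusted p = 0.202). A second Bub1 probe set gave 0.29 ± 0.07 with no overlap (adjusted p = 0.104, and 0.0441 with the block, with adjusted p up to 0.248 when a number was left out). Birc5, the survivin subunit of the chromosomal passenger complex, read 5277, 5852 and 6488 against 5275, 5106 and 5559 (log2 0.14 ± 0.09) and overlapped. Its partners Incenp (0.15) and Aurkb (0.05), the scaffold and the kinase of that complex, overlapped too at their brightest probe sets, and Aurkb had -0.19 without EBF 3 and control 2. A second Aurkb probe set read 1521, 1620 and 1798 against 1419, 1216 and 1449 without overlap (log2 0.27 ± 0.10, adjusted p = 0.199). The other probe sets of Incenp ran from -0.14 to 0.31. The one at 0.31 ± 0.08 did not overlap (adjusted p = 0.125, and 0.0507 with the block), nor did the one at 0.19. At the Incenp probe set with -0.14 all EBF arrays lay below all controls, with 326, 321 and 339 against 365, 376 and 356. Aurka, the spindle pole kinase, had 0.19 without overlap, and Nek2, a kinase that separates centrosomes, 0.20 with overlap. The other Nek2 probe sets gave 0.28 without overlap, and 0.18 and -0.04 with overlap.

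Checkpoint and anaphase genes had a median of 0.17 over 6 genes, all above 0. Mad2l1, which encodes the checkpoint protein Mad2, read 3845, 3912 and 4243 in the EBF arrays and 3504, 3255 and 3674 in the controls (log2 0.20 ± 0.08, adjusted p = 0.227). Cdc20, the activator of the anaphase-promoting complex that Mad2 restrains, read 5631, 6106 and 6188 against 5098, 5348 and 5404 (log2 0.18 ± 0.07, adjusted p = 0.244). Both sets of arrays were apart, and in Cdc20 control 2 was not the lowest array. The other 2 Cdc20 probe sets gave 0.20 and 0.28, also without overlap. Bub3, a checkpoint protein that is present through the cycle, read 6896, 6938 and 7555 against 7021, 7056 and 6906, with groups intermingled (log2 0.03 ± 0.07, 95% interval -0.14 to 0.19). Its sign turned with scaling of the arrays to one median or with quantile normalization. Espl1, the separase that cleaves cohesin, read 1573, 1945 and 2086 against 1652, 1454 and 1787 (log2 0.19 ± 0.12) and overlapped. Bub1b, which encodes the checkpoint protein BubR1, had 0.16 without overlap, and Pttg1, the securin that holds separase inactive, 0.06 with overlap. The other Bub1b probe sets gave 0.32 without overlap and 0.07 with overlap. Those of Pttg1 gave 0.26 without overlap and -0.04 with overlap.

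All 5 centromere and kinetochore genes were above 0 at their brightest probe sets, with a median of 0.24. Cenpe, the kinesin that carries chromosomes to the metaphase plate, read 1677, 1725 and 1616 in the EBF arrays and 1477, 1158 and 1455 in the controls (log2 0.30 ± 0.10, adjusted p = 0.187). Its other probe set leaned the opposite way, with 870, 924 and 980 against 1129, 952 and 1010 and with overlap (log2 -0.15 ± 0.09, adjusted p = 0.381). Nuf2 and Ndc80, partners in the complex that grips microtubule ends, had differences of like size. Nuf2 read 2321, 2267 and 2485 against 2049, 1837 and 2105 (log2 0.24 ± 0.08, adjusted p = 0.185), and Ndc80 read 1024, 1054 and 1087 against 940, 759 and 940 (log2 0.26 ± 0.09, adjusted p = 0.205). The groups did not overlap at the brightest probe sets of these 3 genes. Cenpa, the histone H3 variant that marks centromeres, read 4454, 5541 and 5523 against 4783, 5032 and 4978, with EBF 1 the lowest array of all (log2 0.06 ± 0.10, adjusted p = 0.762). Its other probe sets gave -0.06 and -0.21. At the Cenpa probe set with -0.21 all EBF arrays lay below all controls (675, 687 and 656 against 699, 807 and 846, adjusted p = 0.242). Cenpf, a large outer kinetochore protein, had 0.12 and overlapped, as did its other probe sets at 0.11 and 0.08.

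Kif22, a chromosome arm motor known as Kid, was the one member with a probe set that passed without the block. At its brightest probe set the arrays read 9006, 8745 and 9129 in the EBF arrays and 7761, 7570 and 7905 in the controls, tight within groups and apart between them (log2 0.21 ± 0.07, adjusted p = 0.169). At a second probe set they read 1956, 2058 and 1949 against 1470, 1276 and 1504, which rose by log2 0.48 ± 0.08 (adjusted p = 0.0437, and 0.0135 with the block, with up to 0.107 when a number was left out), where 0.344% of all probe sets were called higher. The third read 2077, 2412 and 2493 against 1725, 1463 and 1816 (log2 0.47 ± 0.11; adjusted p = 0.0927, and 0.0202 with the block, with up to 0.108 when a number was left out). All Kif22 probe sets pointed the same way, and the smaller difference was at the brightest one. The call at the second probe set was kept without EBF 3 and lost without any other 1 array (highest adjusted p 0.200). Tpx2, which activates Aurora A on the spindle, read 2771, 2870 and 2755 against 2482, 2268 and 2429 (log2 0.22 ± 0.07, adjusted p = 0.167), with no overlap. Kif11, the motor that pushes spindle poles apart, had 0.29 ± 0.14 with overlap, and 0.14 without control 2. Kif4, a chromosome-bound kinesin, read 2103, 2254 and 2451 against 1999, 2284 and 2206 (log2 0.07 ± 0.09), and Kif2c, a kinesin that takes microtubules apart, had -0.03 ± 0.07. Both overlapped at the brightest probe set, and the other Kif2c probe sets gave 0.27, 0.18 and -0.10.

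In the midzone and cytokinesis group the largest difference was that of Kif20a, a kinesin of the central spindle. It read 1461, 1594 and 1470 in the EBF arrays and 1411, 975 and 1200 in the controls (log2 0.34 ± 0.12, adjusted p = 0.204). The controls were widely spread, and without control 2 the difference was 0.21. Racgap1, the GTPase-activating subunit of the centralspindlin complex, read 2683, 2781 and 2873 against 2466, 2148 and 2280 (log2 0.27 ± 0.08, adjusted p = 0.147). Its partner motor Kif23 read 3629, 3660 and 3456 against 3795, 3567 and 3480 at its brightest probe set, with overlap (log2 -0.01 ± 0.07, 95% interval -0.17 to 0.15). A dimmer Kif23 probe set read 331, 323 and 319 against 284, 261 and 235 without overlap (log2 0.29 ± 0.08, adjusted p = 0.144), and another gave 0.10 with overlap. The probe sets of Kif23 thus disagreed, and no difference between Racgap1 and Kif23 was tested. Anln, the anillin scaffold of the contractile ring, read 3041, 3198 and 3116 against 2574, 2662 and 2902 (log2 0.20 ± 0.07, adjusted p = 0.210), with no overlap and control 1 lowest. Ect2, the exchange factor that turns on RhoA for the ring, had 0.16 and Prc1, which bundles the midzone microtubules, 0.10; both overlapped.

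**Figure D2:**
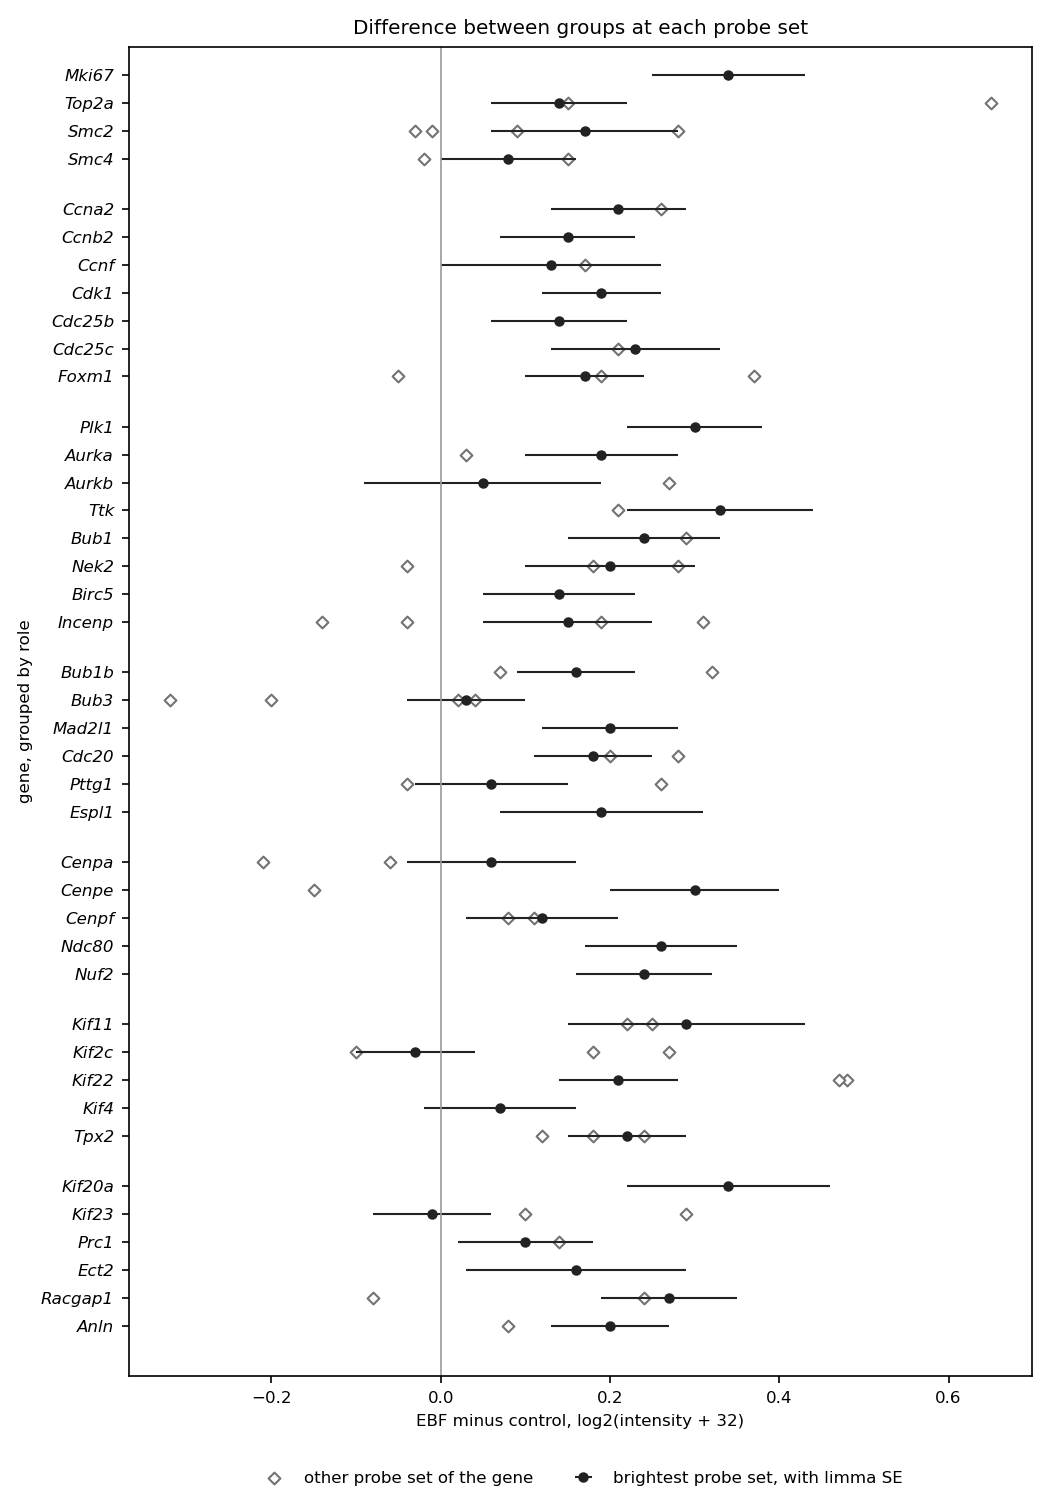
The horizontal axis gives the EBF minus control difference on the log2(intensity + 32) scale; filled points with bars are the brightest probe set of each gene with limma's standard error, and open diamonds are its other probe sets. Most points lie right of 0, up to 0.34 for brightest probe sets and 0.65 for a further one of Top2a.

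The other probe sets of the members gave the same lean with more scatter. There were 56 of them in 28 genes; 41 lay above 0 and 15 below, with a median of 0.16, and 5 read below a mean intensity of 200. One, that of Kif22, passed without the block. With the block 5 passed as higher (Bub1, Foxm1, Top2a and 2 of Kif22), where 4.88% of all probe sets did so, and 1 of Bub3 passed as lower from a mean of 118 to 88.6, near the Bacillus controls. When the probe sets of a gene were averaged before the fit, Top2a (log2 0.31, adjusted p = 0.0451) and Kif22 (0.39, adjusted p = 0.0358) were called, against 0.934% of all genes called higher and 0.918% lower.

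The size of what could be seen was limited. For 17 of 41 members the 95% interval of the difference lay above 0, for 5 it included 0.5, and for 0 of 41 it reached 1. The highest upper bound was 0.63. These intervals are not adjusted for the number of probe sets tested. The 17 are the members with an unadjusted limma p below 0.05, where 13.5% of all genes were higher.

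Genes of the same pathway outside the list were close to it, although these lists too were chosen with earlier results of these data known. Of 99 other mitosis genes measured, of 101 listed, 86 were above 0 with a median of 0.18; 1 was called higher and 0 lower, where 0.418% of all genes were called higher, and 10 and 0 with the block, where 4.8% were. The one called was Mybl2, which encodes B-Myb, the activator that binds CHR promoters. It read 1271, 1252 and 1081 in the EBF arrays and 781, 754 and 768 in the controls, and rose by log2 0.62 ± 0.08 (adjusted p = 0.0145). Leaving out any array but EBF 3 ended the call (adjusted p up to 0.0927). Its control arrays were nearly level. Of 56 DNA replication and S phase genes 51 were above 0 with a median of 0.16, and 2 were called higher and 0 lower (12 and 0 with the block), to be read against the same 0.418% and 4.8%. They were Pold1 and Pold2, subunits of the replicative DNA polymerase delta. Pold1 read 5460, 5345 and 4958 against 3693, 3549 and 3944 (log2 0.49 ± 0.08, adjusted p = 0.0307), and Pold2 read 3137, 3164 and 3012 against 2280, 2071 and 2291 (log2 0.48 ± 0.07, adjusted p = 0.0278). Leaving out any array but EBF 3 ended both calls (adjusted p up to 0.160 and 0.148).

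Control 2 was the lowest array for 61 of the 99 other mitosis genes (61.6%) and for 41 of the 56 replication genes (73.2%). Without control 2 and EBF 3 their medians were 0.09 and 0.13, against 0.07 for the members. Whether the lists differ from each other was not tested.

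Among 14 genes of quiescence and CDK inhibitors the median was -0.09, with 4 above 0 and 0 called. Cdkn1b, which encodes the CDK inhibitor p27, had the smallest p of that list: it read 1676, 1550 and 1744 in the EBF arrays and 1861, 1980 and 2189 in the controls, without overlap (log2 -0.27 ± 0.09, adjusted p = 0.167). Cdkn2a, which encodes the inhibitors p16 and Arf, had 0.25 at a level near the highest Bacillus control. Btg1, an antiproliferative gene, read 1877, 2467 and 2576 against 2738, 4907 and 3155 (log2 -0.60 ± 0.21; adjusted p = 0.191, and 0.0192 with the block). Control 2, the array in which most mitosis genes were lowest, was the one with the highest Btg1.

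**Figure D3:**
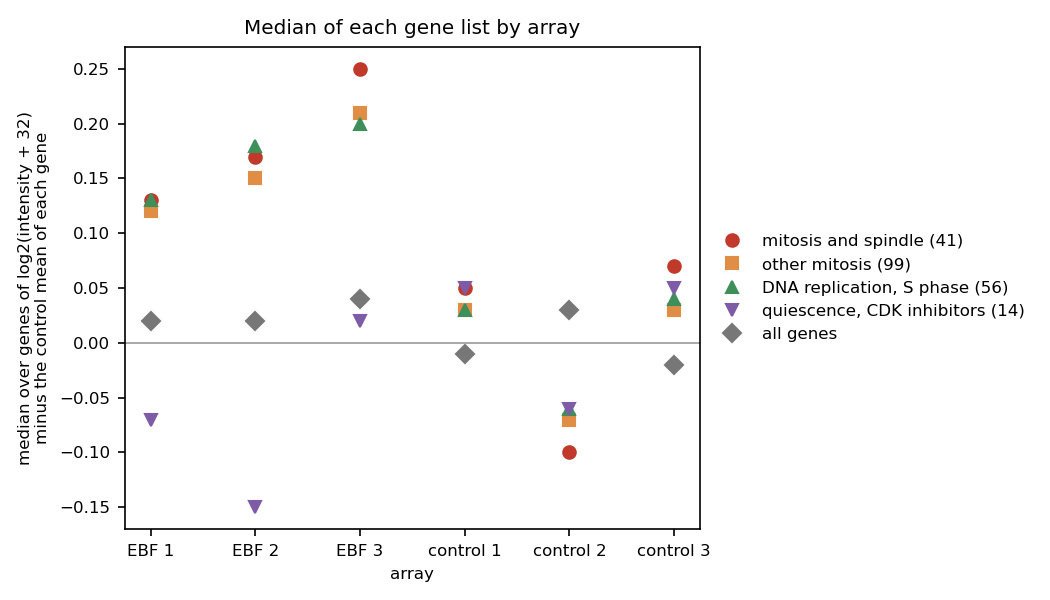
For each array, a point gives the median over the genes of a list of log2(intensity + 32) minus the control mean of each gene. The mitosis and spindle genes stand at 0.13, 0.17 and 0.25 in EBF 1 to 3 and at -0.10 in control 2, and the other mitosis and replication genes are also lowest in control 2.

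**Figure D4:**
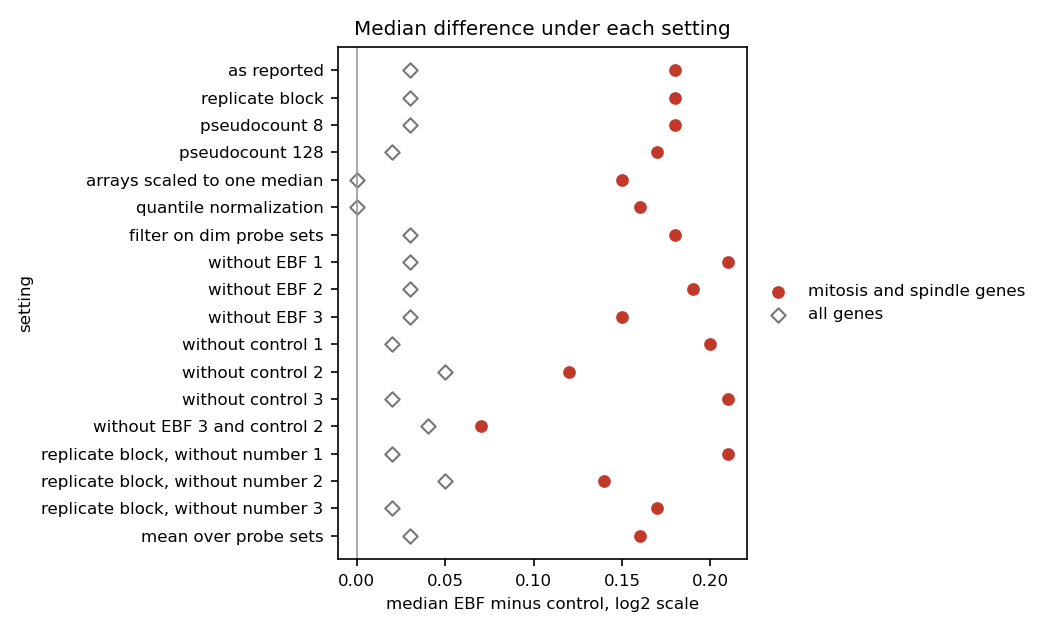
Filled points give the median EBF minus control difference of the 41 mitosis and spindle genes under each setting and open diamonds that of all genes, on the log2 scale. The members' median runs from 0.07 without EBF 3 and control 2 to 0.21 without EBF 1 or control 3, and lies above that of all genes in every setting shown.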

How the data were processed

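The authors deposited linear intensities for each probe set of 6 arrays; how these were made is not given in the sources used here. They were read as mouse probe sets, as the organism label and the platform table give, although a rat array is named in the design text. Of 45101 probe sets, 64 controls were left out. Of the rest 34945 had 1 gene symbol, 932 several and 9160 no listed gene; 34741 of the first were found in RefSeq's mouse gene table (GRCm38.p6). No scaling was applied, because 2% trimmed means differed by a factor of 1.03 at most, under a limit of 5%. Precision is limited by the number of arrays.

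Values of log2(intensity + 32) went into limma 3.58.1 (R 4.3.3), with group alone in lmFit and two-sided eBayes tests. This is a scale that understates changes of dim genes. On simulated arrays the tests recovered 21 of 100 changes of log2 0.5 and 81 of 100 of log2 1.0, so small changes were mostly missed. The members and lists were chosen with earlier results of these data known. Array values were given for members with an unadjusted p below 0.05, those called in either fit, and the brightest and dimmest of each role; of other lists, the called genes or the 3 with the smallest p. Probe sets named after seeing their values were those of Top2a, Smc2, Smc4, Foxm1, Bub1, Bub1b, Aurkb, Incenp, Nek2, Pttg1, Cenpe, Cenpa, Cenpf, Kif22, Kif23, Kif2c, Cdc20 and Bub3 beyond the brightest. Of the 41 brightest probe sets, 4 are of the _x_at type (Aurkb, Incenp, Cdc20 and Kif22) and 4 of the _s_at type (Nek2, Bub3, Pttg1 and Prc1). Both types can read other transcripts, so the values of these genes at their brightest probe sets may not be theirs alone.

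Arrays of the same number deviated together (correlations of 0.316, 0.251 and 0.505 for numbers 1 to 3), above the limit of 0.1. The numbers therefore entered a further fit as a block. The main fit, and every adjusted p given without mention of the block, leaves this pairing out. The pairing is read from the data alone. Alternatives were pseudocounts of 8 and 128, 2 scalings, a filter at a mean of 200, leaving out arrays, the block, and means over probe sets.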

Additional observations from a re-analysis of the deposited data

How the results depend on the processing

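With the block on replicate number, 2 members were called instead of 0 (Mki67 and Plk1) and 1330 genes instead of 198; this pairing changed no other member's call. Averaging probe sets called 2 members (Top2a and Kif22) and 337 genes. Leaving out 1 array called 0 members each time and 44 to 1813 genes. The blocked fit without the 2 arrays of a number was added after seeing the data. It called 0 members and 46 genes higher and 82 lower without number 1, and 0 members and 303 genes without number 2. Without number 3 it called 5 of 41 members and 2625 of 18193 genes, counting both directions. The share of members called there, all of them higher, was no larger than that of all genes called in either direction. It was not set against the genes called higher alone. The 5 members were Mki67 (0.38), Plk1 (0.35), Ttk (0.38), Cenpe (0.37) and Kif20a (0.37). Without EBF 3 and control 2 together 814 genes and 0 members were called and the members' median was 0.07, down from 0.18; over the settings that leave out 1 array it was 0.12 to 0.21. The other settings called 0 members. A lower median without EBF 3 and control 2 follows from leaving out the arrays in which most members were highest and lowest. The cause of the other shifts was not tested.

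Of 697 member values under another setting 26 changed sign. Bub3 read 0.00 with scaled medians, -0.01 after quantile normalization and -0.09 over mean probe sets, where Cenpa read -0.07, Kif2c 0.08 and Kif23 0.13. Without EBF 3, Aurkb read -0.09, Bub3 -0.02, Pttg1 -0.02 and Kif23 0.01; without control 1, Kif23 0.02; without control 2, Ccnf -0.02 and Aurkb -0.05. Without EBF 3 and control 2, Smc2 read 0.00, Smc4 -0.02, Ccnf -0.10, Aurkb -0.19, Bub3 -0.01, Pttg1 -0.03, Cenpf -0.02, Kif23 0.00 and Ect2 -0.07. In the blocked fit, Kif23 read 0.01 without number 1, Aurkb -0.01 without number 2, and Aurkb -0.01 and Bub3 -0.03 without number 3. Over the settings that leave out 1 array, or 1 number in the blocked fit, Aurkb ran from -0.09 to 0.18, Bub3 from -0.03 to 0.05 and Kif23 from -0.04 to 0.02.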
